A study of Mus musculus with 8 samples.

Results

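Gfra1, Stc1 and Cdh17 are 3 of the 14033 gene symbols measured in mouse fetal liver cells at E14.5. They were chosen by measured values of this same comparison: among symbols with an overall mean of at least 50 normalized counts they stood in places 1, 2 and 10 by the size of the excess in GFP+ cells. Their difference between the fractions is therefore described here and not tested. Embryos came from a cross of Flt3-Cre mice with mTmG mice, and both fractions carried both alleles as the labels give them. In mTmG cells a red membrane protein, Tomato, is made until Cre removes it and turns on green GFP, a change that daughter cells inherit. GFP+ cells thus descend from, or are, cells in which the Flt3-driven Cre was active, and Tomato+ cells show no such history. Both fractions were sorted as lineage-negative, Kit+, Sca1+ and CD150+, and each gave 4 RNA-seq libraries. The labels do not say whether the libraries came from separate embryos or litters, or whether embryos were pooled.

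All means, ratios and p-values given here come from the authors' deposited table. A group value is the authors' mean over the 4 libraries of a fraction, and the value of a single library, its depth and the spread between libraries are unknown. The sorted cells had high authors' means for Kit (4087 in GFP+, 4950 in Tomato+), the stem cell factor receptor used in the sort, and for Ptprc (2153 and 1946), the pan-leukocyte CD45. For Ly6a, which encodes Sca1, they were 59.5 and 70.1, and for Slamf1, which encodes the sorted CD150, 27.9 and 119. Flt3, whose regulatory elements drive the Cre, had authors' means of 3753 and 1617.

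The 3 genes encode unrelated proteins of the cell surface and the extracellular space. Gfra1 is a receptor held in the membrane by a lipid anchor; it binds the growth factor GDNF and passes the signal on through the receptor kinase Ret or through the adhesion molecule Ncam1, and is best known in enteric neurons, kidney and spermatogonial stem cells. Stc1 is stanniocalcin-1, a secreted glycoprotein hormone first known for calcium balance in fish. In mammals it is induced by low oxygen in many cells, and it blocks the pappalysin proteases that free IGF from its binding proteins. Cdh17 is a cadherin with a short cytoplasmic tail that does not need catenins; it is abundant in intestinal epithelium, and in mice it is also known from fetal liver and B lineage cells as BILL-cadherin.

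The stretch around the Gfra1 start site is shown because, of the 3 genes, only Gfra1 was matched in the table of start-site windows used here. It is RefSeq sequence of build GRCm38.p6, chr19:58455349-58455648, minus strand, 250 bases before and 50 after the start, written 5′ to 3′. Capitals mark every match to the E-box CANNTG, the short motif that E proteins and other basic helix-loop-helix factors bind.

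Gfra1: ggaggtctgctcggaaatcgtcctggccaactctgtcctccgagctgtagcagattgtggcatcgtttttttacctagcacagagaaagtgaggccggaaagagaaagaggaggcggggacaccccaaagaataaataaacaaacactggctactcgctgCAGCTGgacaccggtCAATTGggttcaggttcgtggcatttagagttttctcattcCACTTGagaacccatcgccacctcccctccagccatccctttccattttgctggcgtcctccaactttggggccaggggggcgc

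This window holds 3 E-boxes, beginning at bases 161, 176 and 217 counted from its 5′ end, and 72.3% of 32851 mouse start-site windows of the same length hold at least 1. It has a GC content of 54.0% against a median of 52.7% over those windows, and 12 CpG dinucleotides against a median of 7. On either strand, it holds no match to AGATAA (erythroid and megakaryocyte factors such as Gata1, in 11.2% of windows), TGTGGT (Runx, 16.8%), GGAAGT (Ets, 23.8%), ACGTG (hypoxia response, 19.6%), CTTTGA (Tcf/Lef, 16%) or TTTATG (Cdx, 11.9%). Nor does it hold GGGCGG (bound by Sp1, 35.7% of windows) or TATAAA (core promoter element, 13.6%). The E-box was likewise searched on both strands, and its 3 matches do not overlap.

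All 3 genes were moderately expressed in GFP+ cells and near the low end of the table in Tomato+ cells. The authors' mean of Gfra1 was 112 normalized counts in the GFP+ and 9.25 in the Tomato+ fraction, a 12.1-fold excess in GFP+ (log2 3.59). The Gfra1 mean lay above those of 36.8% of symbols in GFP+ cells and of 7.28% in Tomato+ cells. Stc1 had authors' means of 132 and 12.1, a 10.95-fold excess (log2 3.45). For Stc1 these shares were 39.7% and 9.82%. Cdh17 had authors' means of 93.9 and 13.3, a 7.08-fold excess (log2 2.82), above 34.05% and 10.7% of symbols. The median symbol row had a mean of 210 in GFP+ and 215 in Tomato+, so all 3 stayed below the middle of the table in the fraction where they were higher.

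Per kilobase of the longest GENCODE coding transcript, the level in GFP+ was 24.1 for Gfra1, 27.1 for Cdh17 and 31.5 for Stc1, in normalized counts per kilobase. On the same scale the Tomato+ levels were 1.99, 3.83 and 2.87, so Cdh17 was the highest of the 3 in Tomato+ and Stc1 in GFP+. Without the spread between libraries it cannot be said which of these neighbouring levels differ. Flt3 itself had 1026 normalized counts per kilobase in GFP+. The 4 Tomato+ libraries together hold about 37.0 normalized counts for Gfra1, 48.3 for Stc1 and 53.0 for Cdh17 (4 times the mean), so the lower value of each fold change rests on few counts. In bulk samples, fewer cells that express a gene and less RNA of it per cell cannot be told apart.

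**Figure D1:**
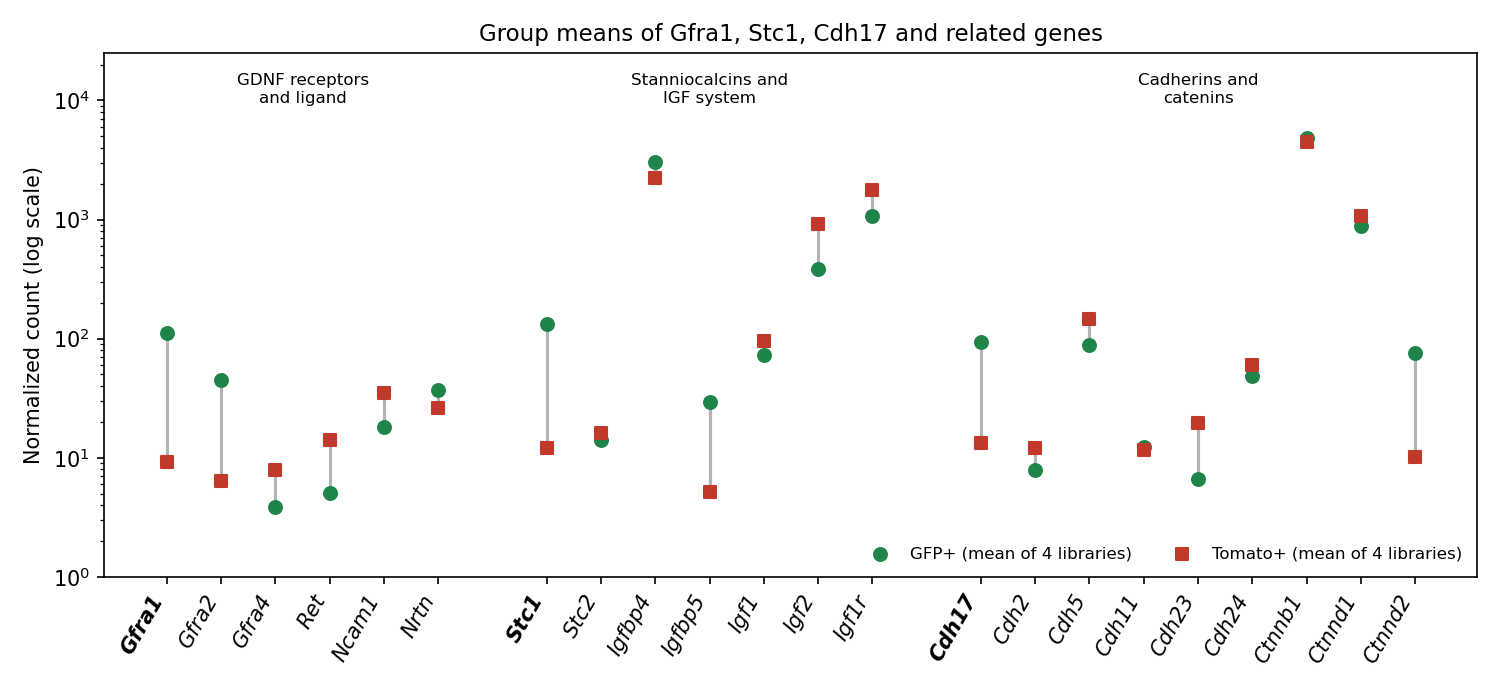
Authors' mean normalized count (log axis) of the 3 genes, in bold, and of related genes in GFP+ (green circles) and Tomato+ (red squares); each point is the mean of 4 libraries and no error is known. Gfra1, Stc1 and Cdh17 lie between 93.9 and 132 in GFP+ and between 9.25 and 13.3 in Tomato+, while Stc2, Ctnnb1 and Cdh11 have nearly equal means.

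A row is counted here as called when the authors' adjusted p was under 0.05, a limit set for this report. Of all 14268 rows 7.49% were called, 4.86% higher and 2.64% lower in GFP+. All 3 genes are among the rows called higher, which follows from how they were chosen. Among rows with an overall mean from 50 to 100, where the 3 genes lie, 9.82% were called, the smallest called rise was 0.45 on the log2 scale and the smallest called fall -0.70. Among rows with a mean under 20 only 1.98% were called, the smallest called rise was 1.16, and the smallest called fall was -2.29. A low gene that was not called may therefore still differ.

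In places 1 and 2 Gfra1 and Stc1 were followed by Rag1, a recombinase of antigen receptor genes, with a deposited log2 (sign turned) of 3.29. Cdh17 in place 10 lay between the unnamed transcript AK016790 (log2 2.82) and the macrophage gene Cd5l (2.79), the first symbol outside the leading 10. Without the minimum mean of 50, the 3 genes stood in places 8, 11 and 43 of 14033. By the distance between log2 group means, taken over the 2 means of each gene, the symbols nearest to Gfra1 were Stc1 (0.45), H4 (0.50) and Gje1 (0.56). Nearest to Stc1 were H4 (0.26), Gfra1 (0.45) and AK016790 (0.46). Nearest to Cdh17 were AK016790 (0.12), the plasma protein gene Ahsg (0.17) and Fcna, a ficolin of macrophages (0.21). The authors' means were 86.5 (GFP+) and 14.4 (Tomato+) for Ahsg and 101 and 15.03 for Fcna, close to the 93.9 and 13.3 of Cdh17. The symbol H4 was not matched to a gene.

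Among other genes of the GDNF family, 1 of 5 with a row rose in GFP+ and 0 fell (20% called, against 7.49% of all rows). The median log2 was -0.93, against 0.01 over all rows and -0.24 over rows with a mean under 20, where 2 of the 5 lie. The gene that rose was Gfra2, the receptor that prefers the ligand neurturin. Its authors' means were 45.0 in GFP+ cells against 6.42 in Tomato+ cells, 7.01-fold apart (adjusted p = 0.00772 by the authors' deposited table). Per kilobase Gfra2 reached 13.0 normalized counts in GFP+, below the 24.1 of Gfra1. Gfra4, the receptor for persephin, had authors' means of 3.86 and 7.91 and did not pass.

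The partners through which Gfra1 signals had lower means in GFP+ and did not pass. Ret, the kinase of the receptor complex, had authors' means of 5.05 in GFP+ and 14.0 in Tomato+ (log2 -1.47, adjusted p = 0.626 by the authors' deposited table). Per kilobase, Ret had 0.926 normalized counts in GFP+ against 24.1 for Gfra1. Ncam1, the other signalling partner, had authors' means of 18.2 and 34.7 (log2 -0.93, adjusted p = 0.427 by the authors' deposited table). Nrtn, which encodes neurturin, had authors' means of 37.0 and 26.3 and did not pass. Gdnf, Artn, Pspn, Gfra3, Gfral, Gas1 and Gdf15 were not analysed here.

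Among adaptors, feedback inhibitors and targets of Ret signalling, 1 of 22 measured rose and 1 fell, with a median log2 of -0.07. The share called, 9.09%, was close to the 7.49% of all rows. Dusp6, a phosphatase that dampens ERK signalling, rose from an authors' mean of 260 to 373 (log2 0.52, adjusted p = 0.00998 by the authors' deposited table). Grb10, an adaptor that binds Ret and insulin receptors, fell from 1974 to 605 (adjusted p = 1.64e-29 by the authors' deposited table). Etv5, a transcription factor gene that responds to GDNF in spermatogonial stem cells, did not pass at authors' means of 425 and 280 (adjusted p = 0.0807 by the authors' deposited table). The core adaptors Grb2 and Shc1 had log2 values of 0.03 and -0.08.

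Stc2, stanniocalcin-2, the paralog of Stc1, had similar means in both fractions, 14.0 in GFP+ and 16.1 in Tomato+ (log2 -0.20, adjusted p = 0.829 by the authors' deposited table). In Tomato+ cells Stc1 had 2.87 and Stc2 4.08 normalized counts per kilobase, and in GFP+ cells 31.5 and 3.54. The proteases that stanniocalcins inhibit, Pappa and Pappa2, were not analysed here. A test of the difference between the 2 paralogs was not possible without values per library.

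Of the 10 other measured genes of stanniocalcins and the IGF system, 1 rose and 2 fell, with a median log2 of -0.42. The share called was 30.0%, against 7.49% of all rows. Igfbp4, the IGF binding protein that pappalysin cleaves, rose from an authors' mean of 2234 in Tomato+ to 3039 in GFP+ (log2 0.44, adjusted p = 0.0089 by the authors' deposited table). Igf2, the main fetal IGF, fell from 917 to 387 (log2 -1.25, adjusted p = 2.03e-12 by the authors' deposited table). Igf1r, the receptor for both IGFs, fell from 1763 to 1071 (adjusted p = 4.35e-06 by the authors' deposited table). Igfbp5, a further substrate of pappalysins, had authors' means of 29.6 and 5.19 and narrowly missed the threshold (adjusted p = 0.0557 by the authors' deposited table).

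Of 22 measured hypoxia-inducible genes, 2 rose and 0 fell (9.09% called, close to the 7.49% of all rows). The median log2 was 0.08, and the values ran from -0.91 for Ak4 to 0.51 for Egln1. Slc2a1, the glucose transporter GLUT1, rose from an authors' mean of 652 to 919 (log2 0.50, adjusted p = 3.53e-05 by the authors' deposited table). Pgk1, a glycolytic enzyme, rose from 3488 to 4679 (log2 0.42, adjusted p = 0.02 by the authors' deposited table). Vegfa and Car9, both classical targets of hypoxia-inducible factors, did not pass (log2 -0.41 and 0.12).

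Of 18 other measured cadherins 0 rose, which does not set Cdh17 apart, since only 4.86% of all rows were called higher. In this list 2 fell (11.1% called, against 7.49% of all rows), 16 had a log2 below 0, and the median was -0.59. Clstn3 and Clstn1, calsyntenins with cadherin repeats, fell from authors' means of 413 to 169 and of 319 to 189 (adjusted p = 2.83e-07 and 0.0237 by the authors' deposited table). Cdh5, the cadherin of endothelium, had authors' means of 88.7 and 147 and did not pass. Per kilobase, Cdh17 with 27.1 normalized counts in GFP+ was near Cdh5 with 22.2, and in Tomato+ the values were 3.83 and 36.9. Cdh16, the nearest relative of Cdh17, and the epithelial Cdh1 were not analysed here. Of the 18, 9 had an overall mean under 20, where the median log2 of all rows was -0.24.

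Among catenins and integrin partners 1 of 13 rose and 2 fell (23.1% called, against 7.49% of all rows), with a median log2 of -0.15. Ctnnd2, a delta-catenin best known from neurons, rose from an authors' mean of 10.05 to 76.1, 7.58-fold (adjusted p = 2.20e-05 by the authors' deposited table). Ctnnal1, an alpha-catenin relative that marks stem cells, fell from 384 to 112, and Mllt4, which encodes afadin, from 234 to 81.4 (adjusted p = 6.61e-12 and 1.52e-06 by the authors' deposited table). Ctnnb1, beta-catenin, had a log2 of 0.10, and Itgb1 and Itga2, the integrin chains reported to bind Cdh17, had -0.04 and -0.91. None of these passed.

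Of 2 measured transcription factors tied to Cdh17 in gut and liver, 1 rose (50% called). That is too few genes to set against the 7.49% of all rows. Hnf4a, of hepatocytes and gut epithelium, rose from an authors' mean of 323 to 520 (log2 0.68, adjusted p = 0.0325 by the authors' deposited table). Cdx2, the master regulator of intestinal identity, had authors' means of 11.8 and 7.81 and did not pass. Cdx1 was not analysed here.

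**Figure D2:**
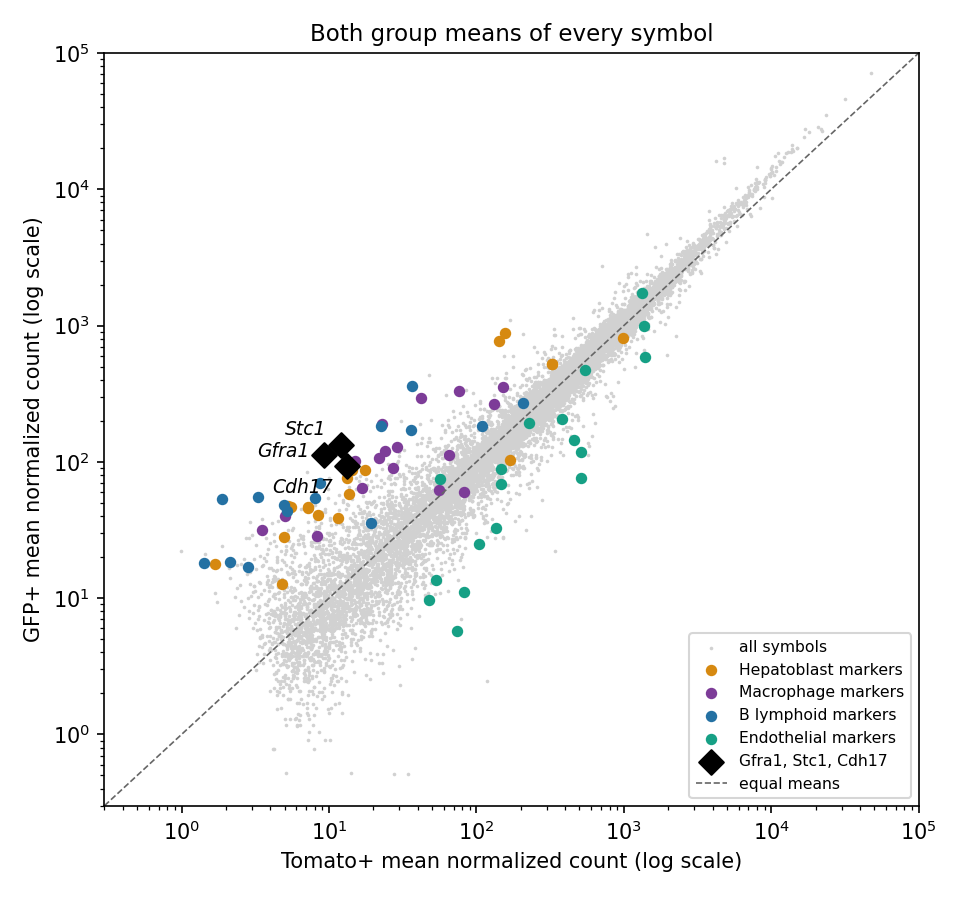
Authors' mean normalized count in GFP+ (vertical, log axis) against that in Tomato+ (horizontal, log axis) for every symbol (grey), 4 marker lists (coloured) and Gfra1, Stc1 and Cdh17 (black diamonds). The 3 genes lie above the dashed line of equal means, in the region where hepatoblast, macrophage and B lymphoid markers also lie.

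Most markers of several other cell types moved in the same direction as the 3 genes. Over all rows, 4.86% were called higher and 2.64% lower in GFP+. Of 15 measured B lymphoid markers 9 rose and 0 fell (60% called), and the median log2 was 3.03. Their summed authors' means were 1581 in GFP+ and 469 in Tomato+. The values ran from 0.38 for Cd79b to 4.82 for Igll1, 9 of 15 were above the 2.82 of Cdh17, and 3 of 15 above the 3.59 of Gfra1. Of 19 hepatoblast markers 16 rose and 0 fell (84.2% called), with a median of 2.45 and sums of 4252 and 2225. These sums include Dlk1 (811 in GFP+, 993 in Tomato+), which did not pass. Of 17 macrophage markers 13 rose and 0 fell (76.5% called), with a median of 2.12 and sums of 2377 and 778. Apoh, with 3.38, had the largest log2 of the hepatoblast list, and Clec4f, with 3.17, that of the macrophage list. Both were below the 3.45 of Stc1 and the 3.59 of Gfra1, while 3 markers of each list were above Cdh17. The 3 genes were chosen for a large log2, so their place above most markers follows from that choice. Not every marker above Gfra1 passed: Pax5, with authors' means of 18.1 in GFP+ and 1.43 in Tomato+, did not. The lowest log2 values were -0.71 for Krt18 (hepatoblast) and -0.48 for Mrc1 (macrophage), and neither passed. Among 15 erythroid markers 12 rose and 1 fell (86.7% called), with a median of 1.42 and sums of 39561 and 12908. Most of both sums came from Hba-a2 (16122 in GFP+, 4190 in Tomato+) and Hbb-b1 (15589 and 4780). The values ran from -1.06 for Gata1, the marker that fell, to 2.70 for Hbb-y. Epor (-0.89) and Klf1 (-0.46) were also below 0 and did not pass. The smallest rise, 0.15 for Rhag, turned negative when both fractions were scaled to equal totals. No marker with a row had a mean of 0. The part of these cell types in the values of Gfra1, Stc1 and Cdh17 was not tested.

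Lymphoid-primed progenitor markers rose in 13 of 17 cases and fell in 0 (76.5% called, against 7.49% of all rows). Their median log2 was 1.02 and the highest value 3.29 for Rag1. Rag1, Rag2 and Il7r stand in both this list and the B lymphoid list, so these lists are not independent. Stem cell and megakaryocyte markers fell in 14 of 16 cases and rose in 0 (87.5% called), with a median of -1.31. Endothelial markers fell in 13 of 18 cases and rose in 1 (77.8% called), with a median of -1.46. Vwf and Esam, which both fell, are counted in the stem cell list as well as the endothelial list.

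Few marker genes of the tissues in which Gfra1 and Cdh17 are best known could be examined. Of 6 measured enteric neural crest genes, 0 passed in either direction and 0 had an unadjusted p under 0.05 in the authors' table. Over all rows 7.49% were called, and 0 of 6 cannot be told from that share. Of the 6, 4 had an overall mean under 20, where 1.98% of rows were called. Ret and Ncam1 are among the 6 and were also counted in the GDNF family. All 6 had a log2 below 0, from -1.47 to -0.41, and their sums were 85.02 in GFP+ and 136 in Tomato+. Sox10, a defining gene of these cells, was not analysed here. Of 4 measured gut epithelium genes, 1 fell and 0 rose (25% called, against 7.49% of all rows). Muc13, a mucin also found on blood progenitors, fell from an authors' mean of 615 to 223 (adjusted p = 4.62e-17 by the authors' deposited table). Vil1, Fabp2 and Krt20, which define gut epithelium, were not analysed here. None of 8 stellate and mesenchymal markers passed, 3 had an unadjusted p under 0.05, and the median log2 was -0.36. Their values ran from -2.64 for Col3a1 to 2.09 for Reln, and 5 of the 8 had an overall mean under 20. With 8 genes, 0 calls cannot be told from the 7.49% of all rows.

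**Figure D3:**
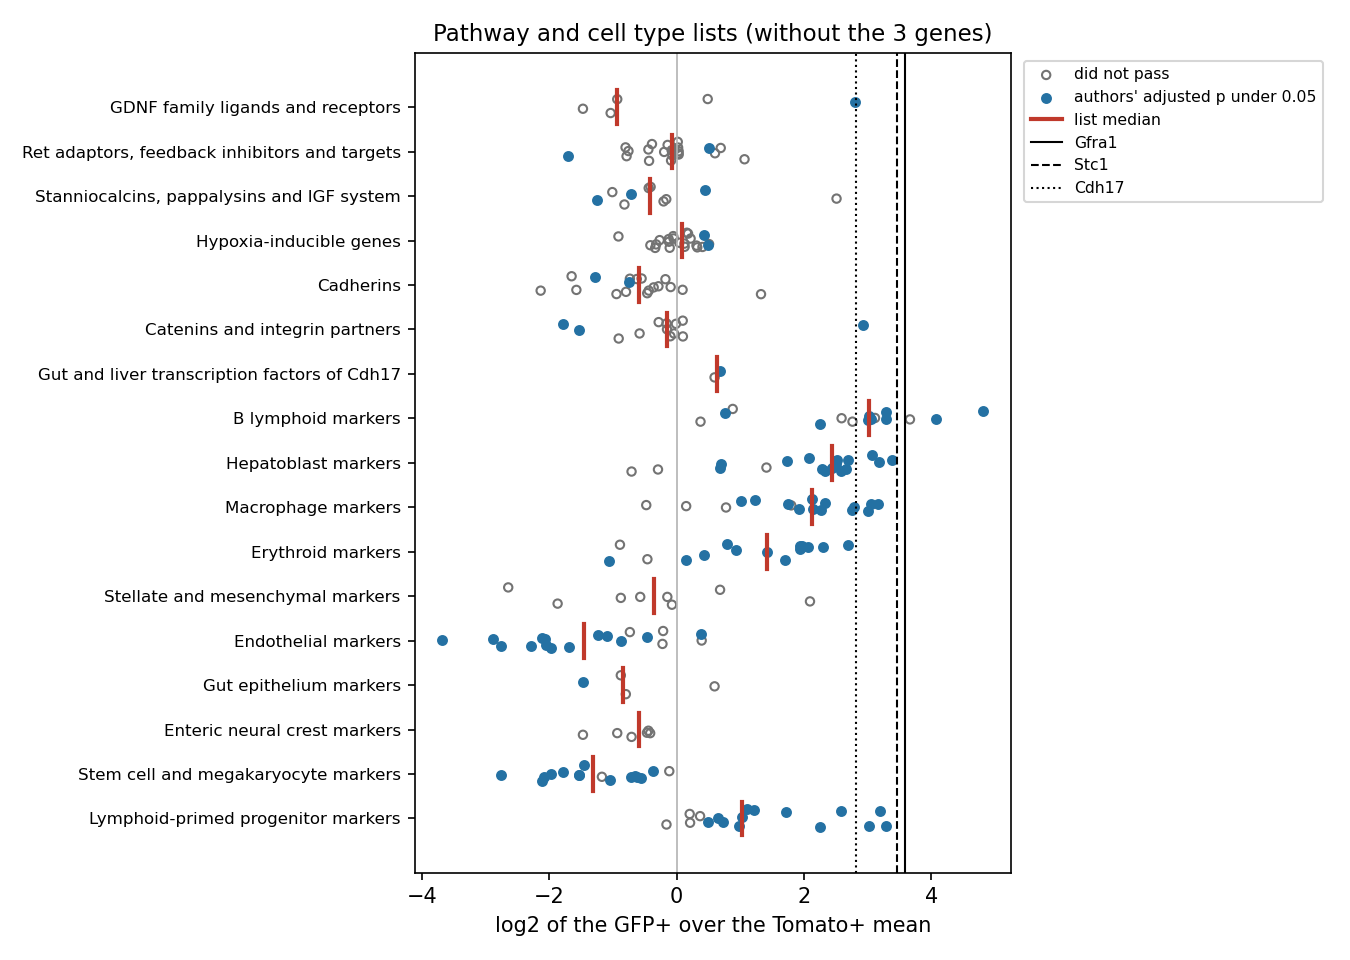
The log2 ratio of the GFP+ over the Tomato+ authors' mean for each measured gene of the pathway and cell type lists, without the 3 genes. Filled points had an authors' adjusted p under 0.05, open points did not, and red bars are list medians. Vertical lines mark Cdh17 (2.82), Stc1 (3.45) and Gfra1 (3.59). These lines lie to the right of nearly all pathway genes, which follows from the choice of the 3 genes by this ratio. Of 15 B lymphoid markers, 9 lie to the right of Cdh17 and 3 to the right of Gfra1.

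The genes around Gfra1, Stc1 and Cdh17 on their chromosomes (19, 14 and 4 in GRCm38.p6, used for gene order only) were examined for shared differences. For each gene, the 3 nearest protein-coding genes with a row on either side were taken, a choice made after the data were seen. Genes without a row were passed over, so these are not always adjacent. Over all rows 7.49% were called, and with 6 neighbours per gene a single call cannot be told from that share. Of the 6 neighbours of Gfra1, 0 rose and 1 fell. The gene that fell was Slc18a2, a vesicular amine transporter and the 12th protein-coding gene on its side, with authors' means of 131 in GFP+ and 578 in Tomato+ (adjusted p = 8.05e-26 by the authors' deposited table). The other 5 had log2 values from -0.21 to 0.27, including Atrnl1 directly beside Gfra1 with 0.12. Of the 6 neighbours of Stc1, 1 rose and 0 fell. It was Slc25a37, the mitochondrial iron importer mitoferrin-1 of red cell precursors and the 3rd protein-coding gene on its side, with authors' means of 2407 and 1070 (adjusted p = 6.86e-32 by the authors' deposited table). None of the 6 neighbours of Cdh17 passed, and their log2 values ran from -0.28 for Rad54b to 0.40 for Gem.

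**Figure D4:**
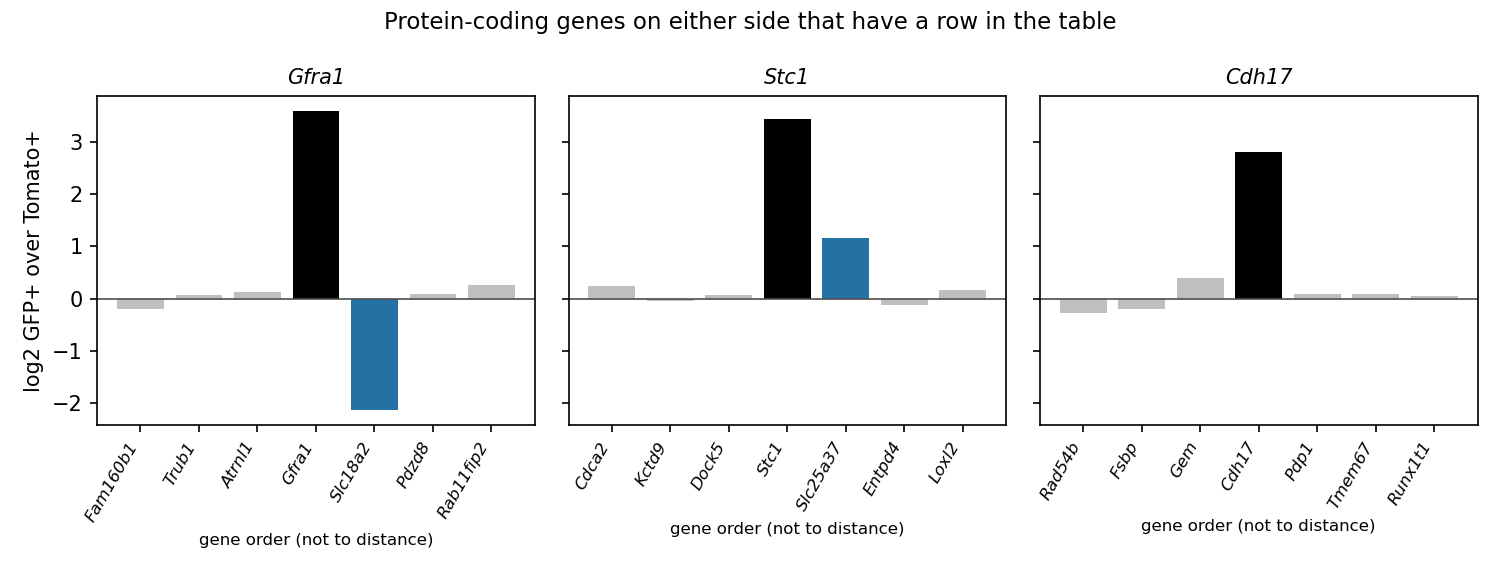
The log2 ratio of the GFP+ over the Tomato+ authors' mean for each of the 3 genes (black bars) and the nearest protein-coding genes with a row on either side, in chromosome order and not to distance. Blue bars had an authors' adjusted p under 0.05 and grey bars did not. Only Slc18a2 (-2.14) and Slc25a37 (1.17) are blue.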

How the data were processed

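RNA-seq libraries of 4 GFP+ and 4 Tomato+ samples were compared by the authors. Per the submitters' processing notes DESeq, bedtools, TopHat, TopHat2 2.0.11 and Bowtie2 2.2.1 were used with build mm9. The sources used here do not state their roles or settings. Per row, the deposited table gives, per the file headers, a signal (the mean normalized count over all libraries and over each fraction), the ratio of the group means as a fold change, that ratio on the log2 scale, and a raw and an adjusted p-value. The rows show that the ratio is Tomato+ over GFP+, so the sign of the deposited log2 was turned. The adjusted p equalled a Benjamini-Hochberg adjustment over all 14268 rows within 5.28e-08. A repeated header line was dropped, and a symbol was read from its row with the highest mean; each of the 3 genes has 1 row. No value per library was at hand, so the tests planned on such values were not run.

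The genes, lists and rule for named genes were chosen with earlier results of these data known. Named were the 3 genes, the measured genes of their families, the 2 smallest p-values of other pathway lists, the nearest symbols by both means and the symbols ranked beside them; the other genes were chosen after their values were seen. Lists were counted without the 3 genes, and no set test was run. Some lists share genes: besides those named above, Hnf4a is in the hepatoblast list and among the factors tied to Cdh17. Cdx2 is among those factors and in the gut epithelium list. Cdh5 is a cadherin and an endothelial marker, and Ctnnal1 is in the catenin and stem cell lists. Scaling both fractions to the same total lowers every log2 by 0.16. Lengths came from GENCODE M21, start-site windows from RefSeq. Counting was tested on simulated data with pandas 2.3.3 and statsmodels 0.14.6.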

Additional observations from a re-analysis of the deposited data

How the results depend on the processing

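No paired analysis was possible because only group means were at hand; leaving out libraries, other size factors and other count filters were not run for the same reason. The depth per library is unknown. None of the alternatives run could turn the direction of Gfra1, Stc1 or Cdh17, so they show only how the size of the values moved. Scaled to equal totals their log2 values were 3.44, 3.30 and 2.67, and centred on the median row (overall mean 50 or more) they were 3.56, 3.42 and 2.79. A pseudocount of 1 gave 3.46, 3.35 and 2.73, and a pseudocount of 10 gave 2.66, 2.69 and 2.16, which puts Stc1 above Gfra1, since it weighs on low Tomato+ means. Of all rows, 1069 were called at 0.05, 699 at an adjusted p under 0.01 and 492 with a minimum log2 change of 1. At an adjusted p under 0.1 the calls among Ret adaptors and targets and among hypoxia genes were 4 each, from 2 each. Under 0.01 there was 1 hypoxia gene and 1 cadherin, from 2 each, and 0 of the factors tied to Cdh17, from 1. With the minimum change there was 1 call each for Ret adaptors, the IGF system (from 3) and cadherins, and 0 for hypoxia genes and Cdh17 factors. With a mean of at least 50 the GDNF family had 0 calls, from 1, since Gfra2 falls below that mean, and the catenins 2, from 3, since Ctnnd2 does too. In the pathway lists no called gene changed direction with equal totals or centring, and of the cell type lists 1 erythroid gene, Rhag, did with equal totals.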

Other observations

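The combination of an authors' mean of at least 75 in GFP+ and at most 15 in Tomato+, limits set after the data were seen, was met by 10 of 14033 symbols. Gfra1, Stc1 and Cdh17 are among them, which follows from how the genes and the limits were chosen and is no separate result. The others were Gje1 of the connexin family, H4, Ctnnd2, AK016790, Kcng1 of the voltage-gated potassium channel family, and the plasma protein genes Ahsg and Apob. Gje1 had authors' means of 84.4 and 7.06, and Kcng1 77.4 and 13.7. The reverse combination was met by 3 symbols: Fos, an immediate early transcription factor gene, Cyp26b1, an enzyme that degrades retinoic acid, and Lyve1, a hyaluronan receptor of sinusoidal and lymphatic endothelium. The authors' GFP+ and Tomato+ means were 2.47 and 117 for Fos, 7.03 and 78.9 for Cyp26b1, and 11.2 and 82.6 for Lyve1.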
